A study of Mus musculus with 7 samples.

Results

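The genes described here are 40 genes of the cell cycle and of DNA replication, listed by function and read from every probe that carries their current or older symbol (the 3 probes of Cdk1, once called Cdc2a, carry the current symbol). They comprise 15 genes of S phase and its entry, 23 mitotic genes and 2 G1 cyclins, out of 16593 genes with a named probe. A named probe was found for 37 of the 40 genes, 62 probes in all. Whole lungs of male claudin-18 knockout mice were compared with wild-type lungs on Illumina MouseRef-8 v2 bead arrays. Both groups were 3 to 4 months old, untreated and of a background that mixed 129S6/SvEvTac with C57BL/6J and Balb/c. The knockout was ubiquitous: a floxed Cldn18 allele was recombined by CMV-cre deleter mice, which removed exons 2 and 3. RNA was extracted with Trizol, and each array took 1 µg of it. There were 3 knockout and 4 wild-type arrays. A knockout replicate 4 is not analysed here. Whether each array stands for its own animal is not stated, so every p-value speaks of the spread among these arrays, which may be technical. In whole tissue, fewer cells of a type cannot be told apart from less RNA per cell.

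The cell cycle runs on successive waves of transcription. D cyclins with CDK4 and CDK6 phosphorylate the retinoblastoma protein, which frees E2F factors to switch on S phase genes, among them the MCM helicase subunits that license replication origins and the enzymes that supply deoxynucleotides. Mitotic genes come on later, through promoters that hold a CHR element and CCAAT boxes, read by the DREAM complex in resting cells and by B-MYB with FOXM1 and NF-Y in G2. The adult lung is a mostly resting tissue, in which cycling cells are a small minority.

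The promoters are shown first, as a description. The S phase and mitotic lists that are compared were set by function and not by these motifs. Sequences are 300 bases of RefSeq on build GRCm38.p6, from 250 bases before to 50 after the annotated start, printed 5′ to 3′ on the gene's strand, with every motif match in capitals on either strand. The motifs searched on both strands were the CHR element TTTGAA, the NF-Y box CCAAT, and 4 E2F-like sites, which were TTCCCGC, then TTGGCGC, then TTCGCGC, and last TTGCCGC. Cdk1, Prc1 and Aurka are the mitotic genes whose signal rose in the knockout, and their windows lie at chr10:69352863-69353162 (minus strand), chr7:80294201-80294500 (plus strand, the first of 2 windows listed) and chr2:172370521-172370820 (minus strand).
Cdk1: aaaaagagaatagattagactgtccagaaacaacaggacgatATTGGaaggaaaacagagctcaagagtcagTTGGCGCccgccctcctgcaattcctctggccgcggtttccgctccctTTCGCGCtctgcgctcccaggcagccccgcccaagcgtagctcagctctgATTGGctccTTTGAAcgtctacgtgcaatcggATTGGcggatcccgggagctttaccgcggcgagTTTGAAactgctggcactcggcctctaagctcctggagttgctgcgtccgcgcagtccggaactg
Prc1: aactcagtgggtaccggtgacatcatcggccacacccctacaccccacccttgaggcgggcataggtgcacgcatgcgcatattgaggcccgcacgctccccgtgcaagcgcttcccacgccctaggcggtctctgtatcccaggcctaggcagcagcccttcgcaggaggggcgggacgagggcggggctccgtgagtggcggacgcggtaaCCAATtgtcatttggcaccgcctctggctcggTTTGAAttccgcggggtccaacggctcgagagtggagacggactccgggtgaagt
Aurka: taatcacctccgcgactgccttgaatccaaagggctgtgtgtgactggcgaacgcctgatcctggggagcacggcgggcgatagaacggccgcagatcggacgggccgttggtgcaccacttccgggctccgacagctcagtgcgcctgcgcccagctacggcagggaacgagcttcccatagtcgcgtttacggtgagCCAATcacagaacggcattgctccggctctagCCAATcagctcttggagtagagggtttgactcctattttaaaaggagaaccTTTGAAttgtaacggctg
Tyms is the S phase gene whose signal rose, and Mcm5 and Mcm6 are shown as S phase genes with E2F-like sites, at chr5:30073576-30073875 (minus strand), chr8:75109259-75109558 (plus strand) and chr1:128359656-128359955 (minus strand).
Tyms: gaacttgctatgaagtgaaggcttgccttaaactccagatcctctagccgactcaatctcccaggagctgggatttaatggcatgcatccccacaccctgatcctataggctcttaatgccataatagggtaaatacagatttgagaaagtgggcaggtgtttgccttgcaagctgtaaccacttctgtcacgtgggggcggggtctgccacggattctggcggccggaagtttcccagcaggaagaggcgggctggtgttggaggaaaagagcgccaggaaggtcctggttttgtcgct
Mcm5: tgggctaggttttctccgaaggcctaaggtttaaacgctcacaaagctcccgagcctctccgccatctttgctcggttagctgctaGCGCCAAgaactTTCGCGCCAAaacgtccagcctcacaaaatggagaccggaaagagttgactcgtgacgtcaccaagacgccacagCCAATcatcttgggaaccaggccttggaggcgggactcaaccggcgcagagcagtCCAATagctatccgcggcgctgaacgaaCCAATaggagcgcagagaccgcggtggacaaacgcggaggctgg
Mcm6: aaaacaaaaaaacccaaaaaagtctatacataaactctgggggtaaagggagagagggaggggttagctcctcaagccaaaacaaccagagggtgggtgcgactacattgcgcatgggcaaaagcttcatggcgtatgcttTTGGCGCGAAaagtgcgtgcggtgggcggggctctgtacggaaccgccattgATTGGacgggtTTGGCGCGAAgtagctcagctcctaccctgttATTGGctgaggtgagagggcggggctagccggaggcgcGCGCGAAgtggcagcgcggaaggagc

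In the Cdk1 promoter the CHR element started 71 and 15 bases before the annotated start, with NF-Y boxes 208, 80 and 48 bases before it and E2F-like sites 178 and 130 bases before it. Prc1 held an NF-Y box 37 bases and a CHR element 5 bases before the start. Aurka held NF-Y boxes 51 and 19 bases before the start and a CHR element 32 bases after it. None of these letters was found in the Tyms window, and Mcm5 and Mcm6 held 3 and 5 E2F-like matches, some of them overlapping on opposite strands, and no CHR element. Of the 40 genes, 33 were in the promoter table, and Mcm4, Gmnn, Ccna2, Aurkb, Foxm1, Ccnd1 and Ccnd2 were not. A CHR element stood in 15 of 20 mitotic promoters (75%) and in 1 of 13 S phase promoters (7.69%, Mcm2), against 18.1% of all 27025 promoters of this length. The NF-Y box stood in 18 of 20 mitotic promoters (90%) and 8 of 13 S phase promoters (61.5%), against 37.9% of all. E2F-like sites were the reverse, in 3 of 20 mitotic (15%) and 7 of 13 S phase promoters (53.8%), against 9.69% of all. Among these genes, 4 matches of 1 motif overlapped a match of another (in Cdca8, Mcm7 at 2 places, and Ccnb1). These matches describe the letters of the windows and no binding was measured.

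**Figure D1:**
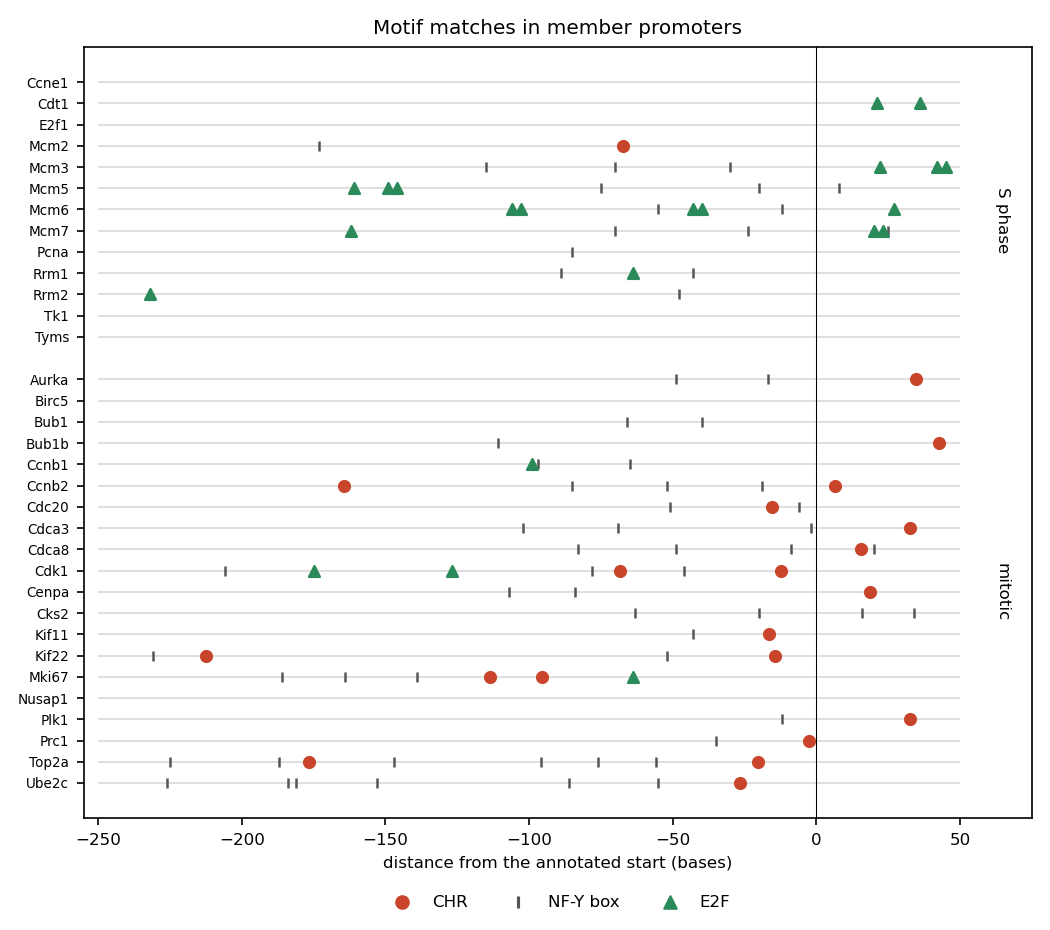
Positions of CHR, NF-Y box and E2F-like matches in the promoters of mitotic and S phase genes, by distance in bases from the annotated start. CHR elements stand in 15 of 20 mitotic promoters and in 1 of 13 S phase promoters, and E2F-like sites in 3 of 20 and 7 of 13.

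The labels were checked on Cldn18 itself. Its normalized log2 signal was 10.48, 10.38 and 10.25 in the knockout arrays and 13.85, 13.94, 14.48 and 14.04 in the wild-type arrays. The groups were far apart, and the knockout was 13.1-fold lower (log2 change -3.71, SE 0.19, limma adjusted p = 4.2e-05). A probe was tested when its detection p was below 0.01 on at least 3 arrays, which held for 11902 probes of 8537 named genes. Between 10291 and 11715 probes were detected on a knockout array and between 11211 and 12376 on a wild-type array.

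Of the 20 mitotic genes with a probe, 10 were tested and 9 were detected on no array. Of all 62 probes, 26 were detected on no array, 24 were detected on all 7, and 32 probes of 23 genes were tested. Knockout arrays 1, 2 and 3 detected 35, 31 and 27 of the 62 probes, and wild-type arrays 1 to 4 detected 27, 34, 30 and 29, so detection overlapped between the groups. No probe carried the name of Mki67 (the Ki-67 antigen), Ccnb1 (cyclin B1) or Aurkb (Aurora kinase B). Of the 14 genes with probes that were not tested, 13 were detected on no array. In S phase these were Ccne1 (cyclin E1, which drives S phase entry), Gmnn (geminin, the inhibitor of Cdt1), Mcm7 (a helicase subunit) and Pcna (the sliding clamp of DNA polymerase). In mitosis they were Bub1 and Bub1b (spindle checkpoint kinases), Ccna2 and Ccnb2 (cyclins A2 and B2), Cdca8 (borealin of the chromosomal passenger complex), Cks2 (a CDK subunit), Kif11 (a spindle motor), Plk1 (Polo-like kinase) and Ube2c (the ubiquitin-conjugating enzyme of the anaphase-promoting complex). Top2a, the topoisomerase that untangles sister chromatids, was detected on 1 knockout array and on 0 wild-type arrays. For these genes the arrays give no comparison of levels.

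Of the 32 tested probes, 5 (15.6%), from Cdk1, Tyms, Prc1 and Aurka, were higher in the knockout at a limma adjusted p below 0.05. At that threshold 0 were lower. An unadjusted limma p below 0.05 was reached by 8 of the 32, against 25.8% of all probes tested. Over all 11902 probes tested, 3.97% were higher and 4.91% were lower. The genes described here were chosen with earlier results of these data known. These shares are therefore a description and not a test of the list. All knockout arrays stood above all wild-type arrays for 9 of the 32 probes (28.1%), against 13.3% of all probes, and the groups overlapped for the other 23. Read from the brightest tested probe, the change (knockout minus wild type) was above 0 for 17 of 23 genes and below 0 for 6. Over all 8537 genes read the same way, 51% had a change above 0. The median change over these 23 genes was 0.27, against 0.0086 over all 8537 genes.

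The mitotic kinase Cdk1, which with cyclin B drives entry into mitosis, changed most. Its log2 signal was 8.46, 8.80 and 8.75 in the knockout arrays and 6.76, 7.66, 7.45 and 6.96 in the wild-type arrays. The lowest knockout array stood 0.79 above the highest wild-type array. Group means were 8.67 ± 0.19 (SD, n = 3) against 7.21 ± 0.42 (SD, n = 4), a 2.75-fold higher signal (log2 change 1.46, SE 0.23, limma adjusted p = 0.00723). All 7 arrays detected this probe, and none detected the other 2 Cdk1 probes. The change held its call in every alternative tried, but it was smaller without background correction (0.67, adjusted p = 0.0050) and in the authors' processed values (0.49, adjusted p = 0.0102). Before correction the deposited Cdk1 signals were 650, 474 and 498 in the knockout arrays and 490, 470, 477 and 515 in the wild-type arrays, so the raw groups overlapped. The median signal of all probes lay between 259 and 349 on the knockout arrays and between 355 and 468 on the wild-type arrays. As a multiple of its array's median, Cdk1 was 1.86, 1.83 and 1.57 in the knockout and 1.08, 1.32, 1.31 and 1.10 in the wild type, where the groups did not overlap. The deposited signals overlapped for all 5 probes called higher, and 3 of the 5 were separate as multiples of the array median. Their mean deposited signal was lower in the knockout for Aurka (393 ± 84.7, n = 3, against 431 ± 37.2, n = 4, SD) and for the dimmer called Tyms probe (393 ± 127 against 405 ± 30.4). Over the 32 tested probes, the deposited signals of every knockout array were below those of every wild-type array for 5 probes and above them for 0. The share over all probes was not taken for this count or for the multiples of the array median. Neither count is therefore read as particular to these genes. The median of all probes was itself lower on every knockout array than on every wild-type array. The changes called higher are therefore changes relative to each array's background and overall level.

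Prc1, which bundles the microtubules of the central spindle for cytokinesis, also rose. It read 10.19, 10.42 and 10.37 in the knockout arrays and 8.98, 9.74, 9.47 and 9.08 in the wild-type arrays, with no overlap. On average this was 10.33 ± 0.12 (SD, n = 3) against 9.32 ± 0.35 (SD, n = 4), a 2.01-fold difference (log2 change 1.01, SE 0.21, limma adjusted p = 0.0187). The call was lost without knockout array 2 (adjusted p = 0.0845) or 3 (adjusted p = 0.065) and with median scaling in place of quantile normalization (adjusted p = 0.0528). In the authors' processed values the change was 0.67 (adjusted p = 0.0113). As a multiple of its array's median signal Prc1 overlapped between the groups.

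Aurka, the kinase of centrosome maturation and spindle assembly, was the weakest of the 3 mitotic calls. It read 7.75, 7.82 and 7.15 in the knockout arrays and 6.52, 7.05, 6.77 and 6.37 in the wild-type arrays. Knockout array 3 lay 0.10 above wild-type array 2, and only 2 arrays of each group detected the probe. The log2 change was 0.90 (SE 0.23, 1.86-fold, limma adjusted p = 0.0394), and it was no longer called without any 1 of 5 arrays (knockout 1 or 2, wild type 1, 3 or 4, adjusted p from 0.0629 to 0.158). It was also lost without background correction (0.31, adjusted p = 0.0978), with median scaling (adjusted p = 0.0913) and in the authors' values (0.21, adjusted p = 0.133).

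**Figure D2:**
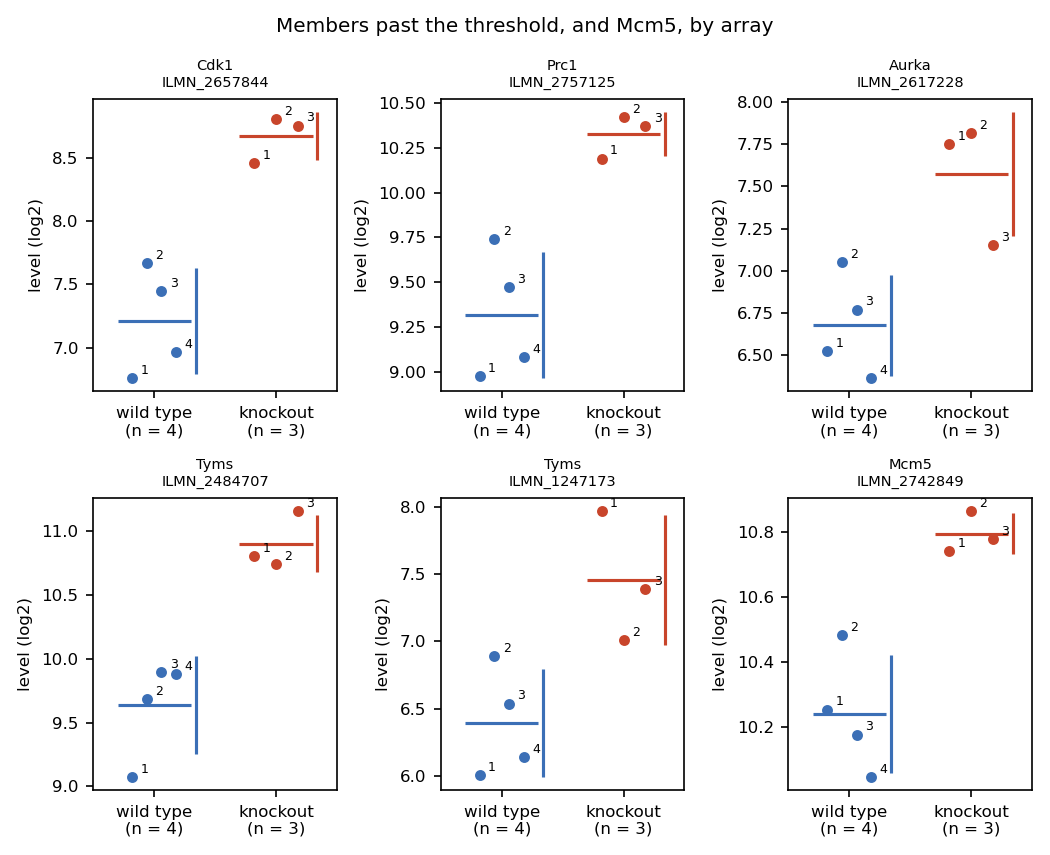
Normalized log2 signal of each array for the 5 probes called higher and for Mcm5, wild type in blue and knockout in red, with points numbered by replicate, the group mean as a line and the SD as a bar (n = 4 and n = 3). Cdk1, both Tyms probes shown, Prc1 and Aurka have every knockout array above every wild-type array, and Mcm5 does too but was not called (limma adjusted p = 0.0609).

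The other mitotic genes tested did not pass. Cdc20, the activator of the anaphase-promoting complex, had a change above 0 on each of its 3 tested probes. Its remaining probe, ILMN_2698767, was detected on no array. Probe ILMN_2867901 of Cdc20 read 8.27, 8.63 and 8.80 in the knockout arrays and 7.41, 8.40, 7.87 and 7.95 in the wild-type arrays, a log2 change of 0.66 (SE 0.24, limma adjusted p = 0.121). Wild-type array 2 overlapped the knockout arrays. The other tested Cdc20 probes gave 0.55 and 0.33 (adjusted p = 0.285 and 0.612). Birc5 (survivin, of the chromosomal passenger complex) gave 0.51, 0.42 and 0.21 on its 3 probes (adjusted p = 0.337, 0.503 and 0.696). Kif22, a chromosome-arm motor, gave 0.50 (adjusted p = 0.230), and Foxm1, the transcription factor of mitotic genes, gave 0.17 (SE 0.18, adjusted p = 0.586).

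The change was below 0 for 3 mitotic genes, none past the test. Cdca3, an adaptor for the degradation of Wee1, read 7.56, 7.27 and 6.43 in the knockout arrays and 6.95, 8.42, 7.42 and 7.22 in the wild-type arrays (log2 change -0.42, SE 0.37, limma adjusted p = 0.510). Cenpa, the histone variant of centromeres, read 11.31, 11.27 and 10.89 in the knockout arrays and 10.67, 11.53, 11.64 and 11.59 in the wild-type arrays (log2 change -0.20, SE 0.25, adjusted p = 0.650). Wild-type array 1 was the lowest of all 7 for Cenpa, while the other 3 wild-type arrays were above every knockout array. Nusap1, a spindle microtubule protein, gave -0.25 (adjusted p = 0.403).

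Among S phase genes, Tyms was the gene that rose. It encodes thymidylate synthase, which makes the thymidine nucleotide for DNA. Probe ILMN_2484707 of Tyms read 10.81, 10.75 and 11.16 in the knockout arrays and 9.08, 9.69, 9.90 and 9.88 in the wild-type arrays, without overlap. The average was 10.90 ± 0.22 (SD, n = 3) against 9.64 ± 0.39 (SD, n = 4), a 2.41-fold higher signal (log2 change 1.27, SE 0.23, limma adjusted p = 0.0108). Its deposited signals were 2297, 1265 and 1548 in the knockout and 1113, 1053, 1462 and 1435 in the wild type, which overlapped. As multiples of the array median they were 6.58, 4.88 and 4.89 against 2.46, 2.97, 4.00 and 3.06, which did not.

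The Tyms probes did not all give the same size. A dimmer Tyms probe, ILMN_1247173, detected on 2 knockout arrays and 1 wild-type array, read 7.97, 7.01 and 7.39 against 6.01, 6.89, 6.54 and 6.14 (log2 change 1.06, SE 0.28, limma adjusted p = 0.0438). That call was lost without knockout array 2 (adjusted p = 0.0553), without wild-type array 1, 3 or 4 (adjusted p = 0.0858, 0.0638 and 0.0929), without background correction (0.35, adjusted p = 0.0927), with median scaling (adjusted p = 0.0633) and in the authors' values (0.23, adjusted p = 0.133). Probe ILMN_2441895 of Tyms, detected on every array, read 7.85, 7.51 and 8.0 against 7.64, 7.50, 7.31 and 7.42, and was not called (log2 change 0.32, SE 0.17, adjusted p = 0.278). The groups overlapped for that probe. Another 2 probes named Tyms were not tested.

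The MCM helicase, which unwinds DNA at replication forks, was read through 5 of its 6 subunits. Mcm5 read 10.74, 10.86 and 10.78 in the knockout arrays and 10.25, 10.48, 10.18 and 10.05 in the wild-type arrays. The groups did not overlap, and the log2 change was 0.55 (SE 0.16, 95% interval 0.20 to 0.91, limma adjusted p = 0.0609). It passed the threshold without background correction (adjusted p = 0.0246), with the authors' values (adjusted p = 0.0219), with a variance trend and robust fitting (adjusted p = 0.0351) and among probes detected on all 7 arrays (adjusted p = 0.0429), and it was 0.39 with median scaling (adjusted p = 0.338). Mcm2 read 8.97, 9.18 and 9.15 against 8.69, 8.72, 8.74 and 9.13 (log2 change 0.28, SE 0.17, adjusted p = 0.334), overlapping through wild-type array 4. Mcm4 read 11.59, 11.65 and 11.63 against 11.91, 11.73, 11.75 and 11.63 (log2 change -0.13, SE 0.15, 95% interval -0.46 to 0.20, adjusted p = 0.613). Mcm3 gave -0.06 (adjusted p = 0.868), and the 2 tested probes of Mcm6 gave 0.27 and 0.03 (adjusted p = 0.457 and 0.937). The remaining Mcm6 probes were detected on no array. The subunits of this 1 complex thus gave changes on both sides of 0, none called.

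The remaining S phase genes were also not called. Tk1, the thymidine kinase of the salvage route, read 8.06, 8.24 and 7.58 in the knockout arrays and 6.45, 8.10, 7.98 and 7.20 in the wild-type arrays (log2 change 0.53, SE 0.37, 95% interval -0.30 to 1.36, limma adjusted p = 0.410). The wild-type arrays alone spanned 1.64 log2 units for this gene. Rrm1 and Rrm2, the subunits of ribonucleotide reductase, gave 0.27 and -0.19 (adjusted p = 0.488 and 0.602). Cdt1, which loads the MCM helicase, gave 0.01 (SE 0.15, adjusted p = 0.985), and E2f1, the S phase transcription factor, gave 0.07 (SE 0.25, adjusted p = 0.893).

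The G1 cyclins had bright probes on every array. Ccnd2 (cyclin D2) read 13.26, 13.16 and 13.29 in the knockout arrays and 12.72, 12.95, 12.47 and 13.09 in the wild-type arrays. The groups did not overlap, but the change of 0.43 (SE 0.18, 95% interval 0.03 to 0.83) was not called (limma adjusted p = 0.171). The 3 probes of Ccnd1 (cyclin D1) gave 0.29, 0.40 and 0.31 (adjusted p = 0.289, 0.199 and 0.277), and the groups did not overlap on 2 of them. For these 4 probes, 3 had every knockout array above every wild-type array and 0 were called.

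**Figure D3:**
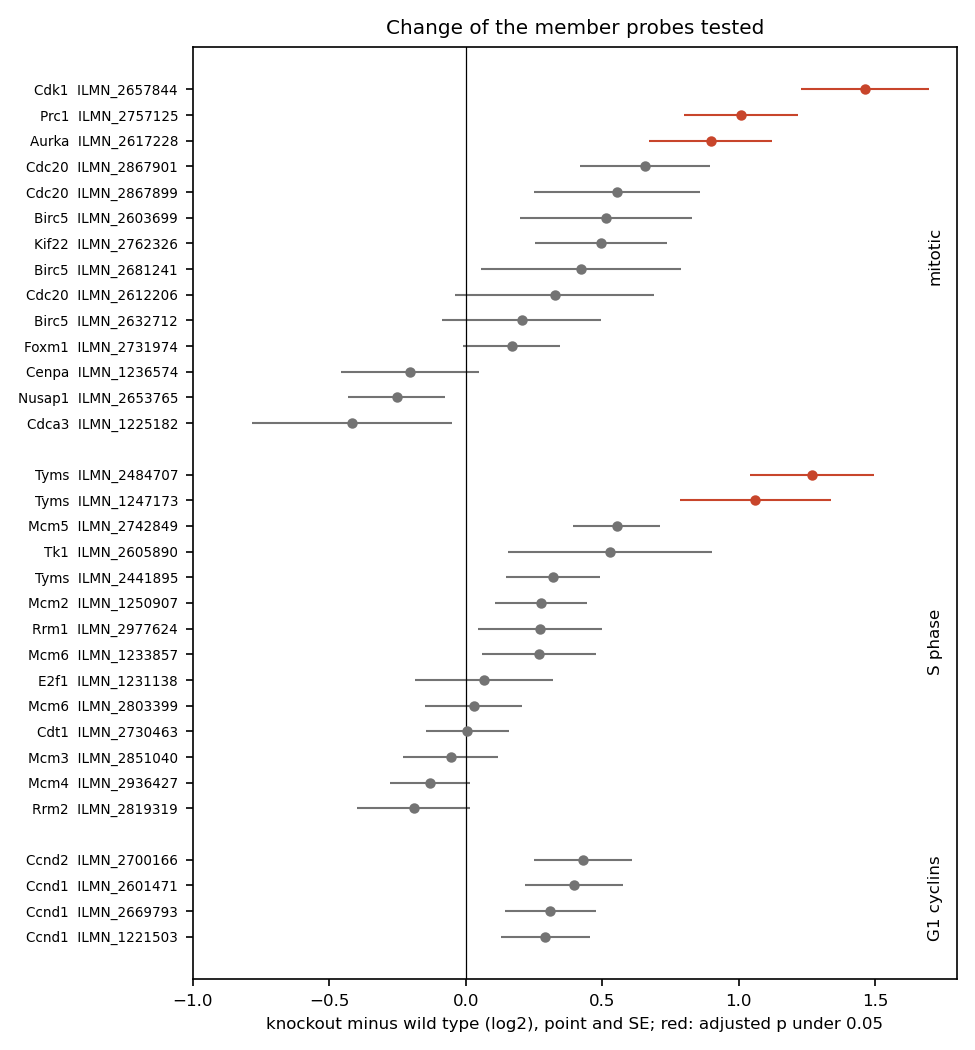
Log2 change (knockout minus wild type) of each of the 32 tested probes as a point, with a bar of 1 SE on each side, grouped as mitotic, S phase and G1 cyclins, and with probes past a limma adjusted p of 0.05 in red. The changes run from -0.42 (Cdca3) to 1.46 (Cdk1), with 26 above 0 and 6 below.

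S phase and mitotic genes were then set side by side. Read from the brightest tested probe, the median change was 0.27 over 11 S phase genes (range -0.19 to 1.27, 8 above 0) and 0.35 over 10 mitotic genes (range -0.42 to 1.46, 7 above 0). Of the 14 probes tested in each group, 2 S phase probes (14.3%) and 3 mitotic probes (21.4%) were called higher. The S phase median minus the mitotic median was -0.08, and it was 0.02 both without background correction and with the authors' values, so no order of the waves can be read from it. Averaged over each gene's tested probes it was -0.29.

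The arrays themselves differed more in mitotic than in S phase genes. The mean level of the mitotic genes, each centred on its mean over the 7 arrays, was 0.29, 0.38 and 0.01 log2 units in the knockout arrays and -0.58, 0.28, -0.09 and -0.29 in the wild-type arrays. Knockout array 3 lay below wild-type array 2, so the groups overlapped. The S phase mean was 0.11, 0.22 and 0.12 in the knockout arrays and -0.32, 0.01, -0.03 and -0.11 in the wild-type arrays, without overlap. Without Tyms, a choice made after its values were seen, it was 0.05, 0.18 and 0.04 against -0.24, 0.06, -0.01 and -0.09, and the groups overlapped.

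**Figure D4:**
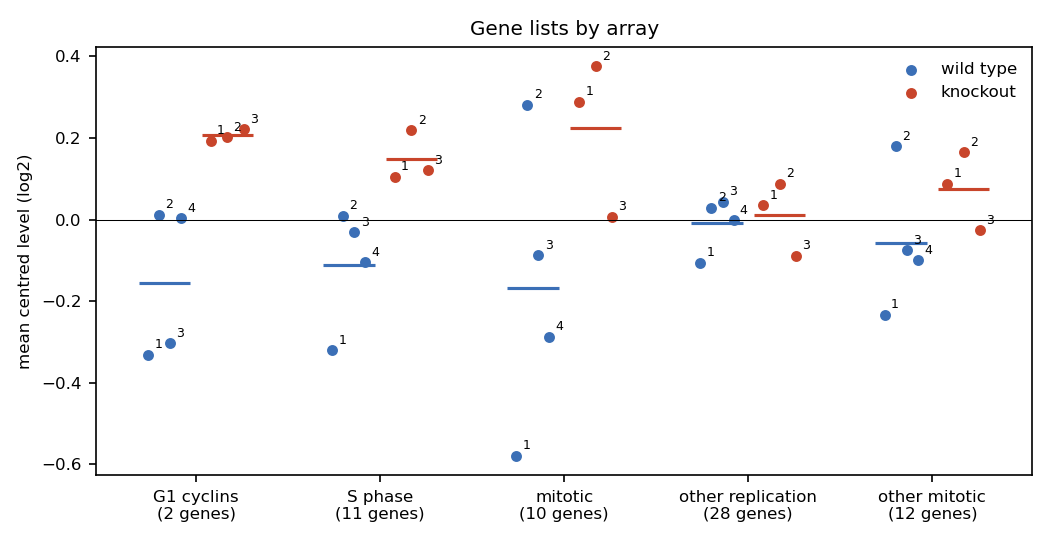
Mean centred log2 level of the S phase, mitotic and other cell cycle lists on each array, wild type in blue and knockout in red, numbered by replicate, with the group mean as a line. The mitotic mean runs from -0.58 in wild-type array 1 to 0.28 in wild-type array 2, a range that holds knockout array 3 at 0.01.

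Wild-type arrays 1 and 2 stood at opposite ends for these genes. Wild-type array 1 was the lowest of the wild type for 20 of the 32 probes (62.5%), against 32.6% of all probes tested. Wild-type array 2 was the highest for 19 (59.4%), against 18.6% of all probes, and the lowest for 0, against 25.8%. The number of called probes fell from 5 to 2 without knockout array 2, to 3 without any 1 of knockout arrays 1 and 3 and wild-type arrays 1, 3 and 4, and to 4 without wild-type array 2. Cdk1 and the brightest Tyms probe were called whichever array was left out (limma adjusted p from 0.0072 to 0.0398 and from 0.0105 to 0.0478).

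The rest of the cell cycle machinery was read through 136 further genes, 64 of which had a tested probe. Of their 87 probes, 2 were called higher and 2 lower (2.3% each), against 3.97% and 4.91% of all probes. An unadjusted limma p below 0.05 was reached by 23 of the 87, against 25.8% of all probes tested. The median change over the 64 genes was 0.04. Among 44 other replication genes (28 tested, 31 probes) 1 probe was called higher, among 50 other mitotic genes (12 tested, 12 probes) 0 were called by limma (5 at an unadjusted p below 0.05), and among 42 G1 regulators and brakes (24 tested, 44 probes) 1 was higher and 2 were lower.

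The replication gene that rose was Rfc5, a subunit of the clamp loader that places PCNA on DNA. It read 8.45, 8.96 and 8.79 in the knockout arrays and 7.70, 8.01, 7.99 and 7.86 in the wild-type arrays, without overlap (log2 change 0.84, SE 0.18, 1.79-fold, limma adjusted p = 0.0196). It was not called without knockout array 2 (adjusted p = 0.102) or 3 (adjusted p = 0.0689) or with median scaling (adjusted p = 0.0912), and its change was 0.34 in the authors' values (adjusted p = 0.0355).

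Of the G1 regulators, Ccnd3 (cyclin D3) rose and the CDK inhibitor Cdkn2c (p18) and the p53 ubiquitin ligase Mdm2 fell, each on 1 of 2 tested probes. Ccnd3 read 13.54, 13.63 and 13.54 in the knockout arrays and 12.91, 13.13, 13.02 and 13.05 in the wild-type arrays (log2 change 0.54, SE 0.14, limma adjusted p = 0.0469), and its other tested probe gave 0.52 (adjusted p = 0.106). Cdkn2c read 10.58, 10.13 and 10.28 against 10.74, 11.29, 11.19 and 11.01 (log2 change -0.73, SE 0.19, adjusted p = 0.0436), and its other tested probe gave -0.45 (adjusted p = 0.150). Mdm2 read 10.23, 10.39 and 10.59 against 11.58, 10.91, 10.95 and 11.60 (log2 change -0.85, SE 0.22, adjusted p = 0.0437), and its other tested probe gave -0.50 (adjusted p = 0.0894). None of these 3 calls held without knockout array 1, 2 or 3, the adjusted p reaching 0.187 for Ccnd3, 0.183 for Cdkn2c and 0.141 for Mdm2. Ccnd3 and Cdkn2c were also lost without wild-type array 2, 3 or 4 (adjusted p up to 0.0948 and 0.0932) and Mdm2 without wild-type array 1 or 4 (up to 0.09), and Ccnd3 with median scaling (0.183). Every knockout array was on the stated side of every wild-type array on the called probes.

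**Figure D5:**
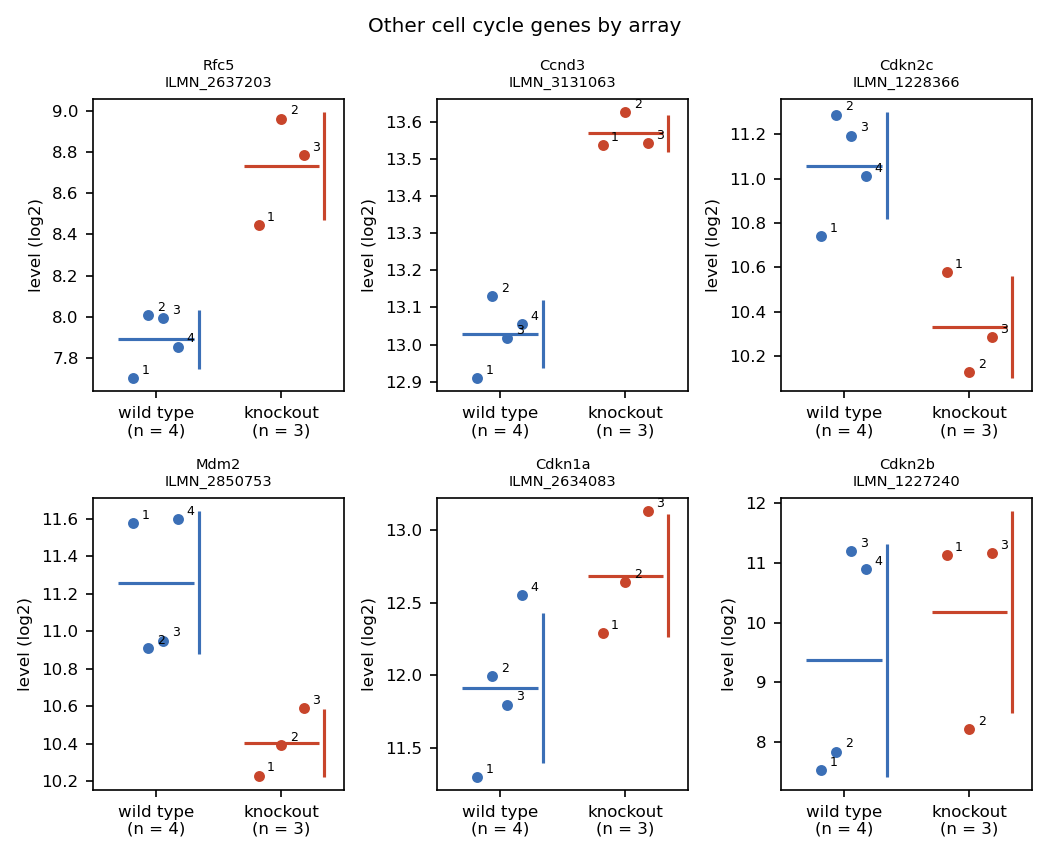
Normalized log2 signal of each array for Rfc5, Ccnd3, Cdkn2c, Mdm2, Cdkn1a and Cdkn2b, all outside the 40, wild type in blue and knockout in red, with points numbered by replicate, the mean as a line and the SD as a bar (n = 4 and n = 3). Rfc5 and Ccnd3 are higher and Cdkn2c and Mdm2 lower in every knockout array than in any wild-type array.

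Markers of the cell types in the lung also differed between the groups. The sums given here add the linear level of the brightest tested probe of each gene, so the brightest genes weigh most. Of 9 tested probes for macrophages and dendritic cells, 5 were called higher and 0 lower. The called probes belonged to Ccl17, Cd207 and Chil3. Adgre1 gave 0.74 and 0.55 and was not called (limma adjusted p = 0.0592 and 0.101). The sum over the 5 genes ran from 20398 to 20675 in the knockout and from 8918 to 13998 in the wild type. It is mostly Chil3, whose brightest probe averaged 13.86 against 12.98 on the log2 scale. Siglecf, Itgax, Flt3 and Xcr1 were detected on no array, and Marco on 0 knockout and 2 wild-type arrays. Of 12 endothelial probes, 9 were called lower, with sums from 33216 to 37657 against 66946 to 77796. Of 13 fibroblast and smooth muscle probes, 6 were lower, with sums from 44758 to 51214 against 64516 to 79064. For B cells 1 of 5 probes was lower (sums from 718 to 1023 against 1230 to 1972, Pax5 and Cr2 detected on no array). For T and NK cells 1 of 6 was lower (3302 to 3613 against 4110 to 5167). That sum holds Cd3d, Cd3e, Cd3g, Cd8b1 and Nkg7, while Cd4, Cd8a, Gzma, Klrb1c and Ncr1 were detected on no array. For erythroid cells 2 of 7 were lower (77770 to 81880 against 73439 to 101839), with Epb42 and Ermap detected on no array. The erythroid sum is mostly Hba-a1, near 16 on the log2 scale on every array, while the mean centred level of the 5 erythroid genes was -0.34, -1.41 and -0.68 in the knockout arrays and 1.18, 0.61, -0.02 and 0.65 in the wild-type arrays, without overlap. Of the 14 epithelial and 9 neutrophil probes 0 were called by limma. An unadjusted limma p below 0.05 was reached by 4 of each, against 25.8% of all probes tested. The epithelial sums ran from 241165 to 253733 against 210788 to 221054 and the neutrophil sums from 63395 to 68495 against 33266 to 123208. The part of the cell type markers in the changes of Cdk1, Tyms, Prc1 and Aurka was not tested.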

How the data were processed

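Whole-lung RNA of 3 knockout and 4 wild-type samples, all on 1 slide, was measured on bead arrays. The knockout arrays lay at slide positions A, B and D and the wild-type arrays at E, F, G and H. Genotype and position on the slide therefore cannot be told apart. Per the file headers, the deposited signal table holds each probe's intensity on a linear scale with no background subtraction, and a detection p-value per probe and array. In a second table the authors deposited log2-like processed values; the submitters' processing notes name lumi 1.14.0 and R 2.11.1. Their exact transformation is not given in the sources used here, so they served as an alternative.

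Signals were processed with limma 3.58.1 in R 4.3.3. With neqc, the background was estimated through the detection p-values and removed, an offset of 16 was added, and arrays were quantile-normalized on the log2 scale. Probes with detection p below 0.01 on at least 3 arrays entered lmFit and eBayes, genotype against genotype. Benjamini-Hochberg adjustment ran over all 11902 of them, at a threshold of 0.05. This fit gave every adjusted p except those stated for an alternative, which came from its own fit over the probes tested there. The limma fit alone was run on simulated levels with known changes and independent noise for each probe. That run did not cover background correction or scaling between arrays. Of 25697 probes, 23978 carried 1 gene symbol, 0 several and 1719 none, and 23962 matched the gene table of GRCm38. A gene with several tested probes was read from the brightest in list medians and array means. Figures were drawn with matplotlib 3.10.9 in Python 3.11.15.

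The genes, lists and tests were chosen with earlier results of these data known. The text names all 40 genes, Cldn18, and from the other cell cycle lists every gene past the threshold. Alternatives covered background correction, offset, scaling, filter, variance fitting, the authors' values and leaving out each array. Because the number of arrays is small, precision is limited. Replicate numbers were not used to pair arrays.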

Additional observations from a re-analysis of the deposited data

Results flagged for a closer look

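Within the 4 wild-type arrays, 38 probes were examined for an array lying far from the other 3, a check by which chance picks about 1 group in 20. For Mcm2, wild-type array 4 stood apart at 9.13, with the other 3 between 8.69 and 8.74. For Cenpa, wild-type array 1 stood apart at 10.7, with the other 3 between 11.53 and 11.64. The groups of 3 knockout arrays were not examined.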

How the results depend on the processing

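With median scaling the median of all probes shifted to -0.14, and 217 probes were higher and 726 lower, against 472 and 584; the called member probes fell from 5 to 2 (1 S phase, 1 mitotic), the other cell cycle probes numbered 0 higher and 4 lower, the S phase median was 0.041, and Cdt1 (-0.20), E2f1 (-0.15), the dimmer Mcm6 probe (-0.16) and Foxm1 (-0.011), all uncalled, changed sign. Without a filter 3 member probes were higher (1 of them S phase), with 1 other probe higher and 0 lower and an S phase median of 0.067; fewer calls there come with 25697 probes tested. Without background correction the S phase median was 0.14 and 4 other probes were higher; with the authors' values these were 0.10 and 4, with 4 lower; with a variance trend and robust fitting 4 others were higher. Averaging a gene's probes gave an S phase median of 0.15 and an S phase minus mitotic difference of -0.29. Leaving out 1 array gave 2 to 4 member probes higher, 1 S phase (1 in each case), 1 to 3 mitotic, 0 to 7 other higher, 0 to 1 other lower, and an S phase median of 0.15 to 0.25. In those fits 5 uncalled probes changed sign: the dimmer Mcm6 probe (-0.053 to 0.14), Cdt1 (-0.044 to 0.059), E2f1 (-0.063 to 0.28), Mcm3 (-0.14 to 0.022) and Birc5 probe ILMN_2632712 (-0.044 to 0.36). The cause of these shifts was not tested. Over all alternatives 420 of 466 member values kept their direction and side of the threshold, 24 lost the call, 4 gained it and 18 changed sign. Only the 5 of 32 tested member probes called in the main fit could lose a call. Most of the 420 are therefore values of uncalled probes. For the other named probes 62 of 90 values kept their direction and side and 28 lost the call.

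Arrays with the same replicate number did not deviate together (r = -0.02, -0.004 and -0.14), and those with different numbers gave r from -0.106 to 0.122. Deviations were taken from the mean of each small group, so these values cannot decide whether the numbers pair arrays. With the replicate number as a block, 2 member probes were higher (1 S phase, 1 mitotic), 1 other probe was higher and 0 lower, and Cdt1 (-0.022) and Mcm6 (-0.030) changed sign. Dim probes that missed the filter once an array was left out, or when detection on all 7 arrays was required, give no value there; the dimmer Tyms probe was not tested without knockout 1, knockout 3 or wild type 2. Dim probes near the detection limit, such as Aurka and the dimmer Tyms probe, limit what can be compared.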

Other observations

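Other genes outside the 40, chosen after their values were seen, are given here as values. Cdkn1a, the CDK inhibitor p21, read 9.41, 9.80 and 9.86 in the knockout arrays and 7.99, 8.87, 8.92 and 9.10 in the wild-type arrays on probe ILMN_2846776 (log2 change 0.97, limma adjusted p = 0.0519). Its brightest probe read 12.29, 12.64 and 13.13 against 11.30, 11.99, 11.80 and 12.55 and was not called (log2 change 0.78, adjusted p = 0.139).

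Cdkn2b, the CDK inhibitor p15, lay at 2 separate levels that did not follow genotype. Knockout arrays 1 and 3 read 11.13 and 11.16 and wild-type arrays 3 and 4 read 11.20 and 10.89, while knockout array 2 read 8.22 and wild-type arrays 1 and 2 read 7.54 and 7.85. The log2 change was 0.80 with an SE of 1.02 (limma adjusted p = 0.661).

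Of the other mitotic genes, Mad2l1, a spindle checkpoint protein, read 9.48, 9.48 and 9.50 in the knockout arrays and 8.95, 9.19, 9.27 and 8.83 in the wild-type arrays (log2 change 0.42, limma adjusted p = 0.139). Incenp, of the chromosomal passenger complex, gave 0.40 (adjusted p = 0.148), and from the other replication genes Uhrf1, which helps to copy DNA methylation, gave 0.55 (adjusted p = 0.107), both with every knockout array above every wild-type array and neither called. Hmgb2, a chromatin protein of the other mitotic list, gave -0.85 (adjusted p = 0.135), with overlapping groups.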
